A study of Homo sapiens with 12 samples.

Results

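The genes described here encode the proteins of the nuclear pore and the carriers that move cargo through it: nucleoporins, importins, transportins, exportins and the core of the Ran cycle. They were the protein-coding rows of the gene count table whose symbol began with NUP, POM121, KPNA, KPNB, IPO, XPO or TNPO followed by its number, or was TPR, RANBP2, SEH1L, NDC1, AAAS, RAE1, RAN, RANGAP1 or RCC1. The rule reads symbols and biotypes and uses no measured value. The rule found 59 of the 58735 genes in the table, of which 19951 were protein-coding and 29789 had a count in at least 1 of the 12 libraries. The cells were TIGK, a gingival keratinocyte line immortalized by hTERT, the catalytic subunit of telomerase. All 4 groups were kept in 48 mM glucose, in a base medium that itself contained no L-arginine (Arg). Controls received no added Arg and were collected at 24 h or 48 h, and treated cells received 500 μM Arg for 24 h or 48 h. Each group had 3 libraries, A, B and C, from wells of this single line, so every p-value measures only the spread between wells. A single immortalized line in high glucose limits these groups as a model of gingiva, and no low-glucose library was used here.

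The nuclear pore complex is a large ring set into the nuclear envelope, built from nucleoporins that are each present in many copies. Scaffold nucleoporins form an outer ring (the Y complex) and an inner ring, membrane nucleoporins anchor both in the envelope, and nucleoporins rich in phenylalanine-glycine repeats fill the central channel. Importins bring cargo in and exportins take it out. Direction is set by the small GTPase RAN, which RCC1 loads with GTP on chromatin and which RANGAP1 switches to its GDP form in the cytoplasm. When the envelope breaks down in mitosis, the same carriers and the same GTPase control where spindle assembly factors are released, and proliferating epithelial cells have to build new pores in every cycle.

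Libraries held 16542243 to 19040964 counts each. All 8 keratinocyte markers were expressed in every library, the lowest of their values being 81.8 CPM (counts scaled to library size), and their summed level was 42610 to 54490 CPM. The summed level of 7 fibroblast markers was 30.2 to 54.4 CPM in the 24 h libraries and 72.7 to 102 CPM in the 48 h libraries, most of it DCN with at most 76.1 CPM. CPM were scaled with TMM factors. Summed endothelial, leukocyte and melanocyte markers reached at most 6.41, 3.56 and 3.05 CPM, with LYZ and TYR at 0 counts in all libraries. Control 48 h library B stood apart from the other 2 controls of its time. Its counts differed from theirs with a chi-square per degree of freedom of 20.9 and 23.9 where no other pair of replicates exceeded 12.5, and mitochondrial genes took 1.55% of its counts against 0.906% and 0.707%. Arg calls of these genes at 48 h are therefore given with and without it, as are the fold changes of the genes with full values. The median, the ranges by role, the correlations with length and the lists of other genes at 48 h are given with it only.

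Of the 59 genes, 54 had enough counts to be tested in every comparison. The other 5 had too few. POM121L2 had 14 counts over all 12 libraries, the importin alpha KPNA7 had 10, NUP210L had 5 and POM121L12 had 0. IPO4, an importin of histones, had 72, but 98.0% of its span is also covered on the same strand by the gene model AL136295.4, which had 0 counts. Reads in the shared stretch cannot be told apart between the 2 models, so the level of IPO4 is uncertain. With 0 counts, a library of the lowest total here allows up to 0.181 CPM, which covers counting error only. Together the 59 genes took 0.973% to 0.985% of the counts of the control libraries at 24 h and 0.989% to 1.07% with Arg. At 48 h they took 0.880% to 0.913% in controls and 0.898% to 0.932% with Arg. Their share was lower at 48 h than at 24 h in every library. The arms did not overlap at 24 h and did at 48 h. In bulk RNA of a culture, fewer cells of a kind and less RNA per cell cannot be told apart. NUP43, NUP88 and XPO5 overlap expressed genes on the opposite strand (PCMT1 with 35591 counts, RABEP1 with 18713 and POLR1C with 7868), and their values are uncertain because the sources used here do not say whether strand was used in counting.

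Levels were compared between genes as CPM per kilobase of exonic length, averaged over the 12 libraries. RAN had the highest level at 233 (range over libraries 191 to 288), followed by the import adaptor KPNA2 at 171 (133 to 224) and the import receptor KPNB1 at 77.2 (70.6 to 89.3). The ranges of RAN and KPNA2 overlapped, and that of KPNB1 lay below both. The RAN level was 4.13 times that of its exchange factor RCC1 (56.3) and 7.20 times that of its GTPase-activating protein RANGAP1 (32.4). The median over the 54 genes was 18.9, and the highest was 354 times the lowest. Of the scaffold nucleoporins, the Y complex genes lay closer together than those of the inner ring. The 7 genes grouped here as the Y complex, which need not be all of its subunits, ranged from 13.0 for NUP85 to 21.8 for NUP160. The inner ring ranged from 8.60 for NUP35 to 30.9 for NUP205. Among the importin alpha adaptors the spread was far wider, since the level of KPNA2 was 261 times that of KPNA5 (0.66). Of the exportins, XPO1, the receptor for leucine-rich export signals, was highest at 32.3 and XPO4 lowest at 4.71.

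**Figure D1:**
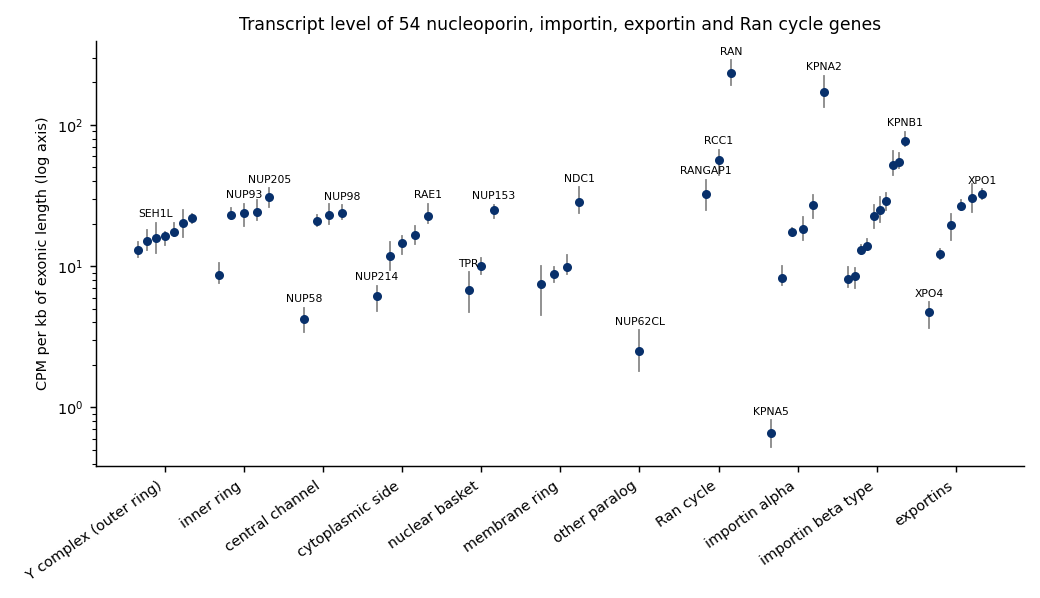
Level of each of the 54 tested genes (log axis, CPM per kb of exonic length) by role; points are means over 12 libraries and bars the range from the lowest to the highest library. RAN and KPNA2 stood at the top with 232.8 and 171.3, and KPNA5 at the bottom with 0.658.

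At 24 h, 3 pore genes were upregulated by Arg and 1 relative of a pore gene was downregulated, at an adjusted p under 0.05 in edgeR's quasi-likelihood test. NUP210, NUP214 and NUP62 were higher and NUP62CL was lower. The 3 higher calls are 5.56% of the 54 genes, where 2.79% of all 14279 genes tested were called higher. The 1 lower call is 1.85%, where 3.84% of all genes were called lower. At an unadjusted p under 0.05, the criterion of the study, 10 of the 54 were higher (18.5%, against 10.8% of all genes) and 2 were lower (3.70%, against 11.9%). The median log2 fold change was 0.033 over the 54 genes and 0.003 over all genes tested, and 32 of the 54 values were above 0. Without Arg 24 h library A the median of the 54 was -0.016 and 26 values were above 0. In these libraries mitochondrial genes took 1.20% to 1.30% of the control counts and 0.624% to 0.802% of the Arg counts, and the part of this difference in the results was not tested.

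NUP210 is a membrane-spanning nucleoporin that lies in the lumen of the nuclear envelope around the pore (chr3:13316235-13420309 in GRCh38, minus strand). Its values in libraries A, B and C were 37.0, 48.0 and 37.9 CPM in controls and 55.9, 72.1 and 65.7 CPM with Arg at 24 h. All Arg libraries were above all controls. The log2 fold change was 0.66 ± 0.12 (standard error), with an adjusted p of 0.0024. At 48 h it had 60.2, 75.9 and 54.4 CPM in controls and 73.1, 71.6 and 82.4 CPM with Arg, so control B lay among the Arg libraries.

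NUP214 sits on the cytoplasmic face, where it helps to release exported mRNA (chr9:131125561-131234670, plus strand). At 24 h it had 65.8, 74.6 and 62.7 CPM in controls and 84.7, 93.4 and 87.1 CPM with Arg. The groups did not overlap, and the log2 fold change was 0.38 ± 0.09 with an adjusted p of 0.0158. NUP62, the repeat-bearing core of the central channel (chr19:49906825-49929763, minus strand), had 133, 135 and 119 CPM in controls and 154, 167 and 163 CPM with Arg. Its lowest Arg library was again above its highest control, with a log2 fold change of 0.32 ± 0.081 and an adjusted p of 0.0249. NUP62 overlaps ATF5 on the opposite strand over 1062 bases, and reads there cannot be told apart if the counting did not use strand, which is not given in the sources used here. On its own strand NUP62 is covered by 2 further models, IL4I1 with 113 counts and AC011452.1 with 0. The calls of NUP214 and NUP62 rested on the full set of libraries. Without control A, control C, Arg B or Arg C, their adjusted p-values were 0.0640 to 0.102 and 0.0792 to 0.154, while NUP210 kept its call in each of these fits.

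NUP62CL encodes a protein that resembles the C-terminal part of NUP62 (chrX:107123427-107206433, minus strand). It had the fewest counts of the 54 tested genes, 1014 over all 12 libraries. At 24 h it had 6.60, 5.25 and 6.25 CPM in controls and 3.71, 3.84 and 3.38 CPM with Arg. All Arg libraries were below all controls, and the log2 fold change was -0.73 ± 0.21 with an adjusted p of 0.0448. Leaving out any library other than control B moved that adjusted p to 0.0602 to 0.174, and a correction for exonic length to 0.0530.

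The promoters of the 3 upregulated nucleoporins are shown because these genes moved in the same direction. Of the 59 genes, 53 matched the RefSeq promoter table by symbol. Each sequence runs 5′ to 3′ in GRCh38.p14 from 140 bases before the RefSeq start to 10 bases from it. The NUP210 window is chr3:13420313-13420462 on the minus strand, that of NUP214 is chr9:131125446-131125595 on the plus strand, and that of NUP62 is chr19:49929495-49929644 on the minus strand. Capitals mark matches to the motifs searched, which were CCAAT (the CCAAT box), the E-box CACGTG, the ETS motif CCGGAAGT, the NRF1 core GCATGCGC and TTTGAA (the core of the cell cycle homology region), on both strands.
NUP210: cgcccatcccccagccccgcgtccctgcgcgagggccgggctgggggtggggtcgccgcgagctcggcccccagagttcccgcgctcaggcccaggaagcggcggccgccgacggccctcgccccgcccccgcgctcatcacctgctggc
NUP214: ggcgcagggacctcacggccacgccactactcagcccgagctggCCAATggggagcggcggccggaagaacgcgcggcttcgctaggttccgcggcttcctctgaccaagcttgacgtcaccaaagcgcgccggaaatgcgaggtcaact
NUP62: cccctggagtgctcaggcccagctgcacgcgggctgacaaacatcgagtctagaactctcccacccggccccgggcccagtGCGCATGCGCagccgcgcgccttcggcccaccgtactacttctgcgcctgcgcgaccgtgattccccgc
The NUP214 window held 1 CCAAT box 96 bases before the start. The NUP62 window held GCATGCGC on both strands in overlapping positions, from 59 bases before the start. NUP210 held none of the 5 motifs in 300 bases, and its printed window was 81.3% G or C. The 3 promoters shared no motif of those searched.

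Of the genes of the Ran cycle, none passed the adjusted test for Arg at 24 h. RAN had 1277, 1154 and 1370 CPM in controls and 1390, 1224 and 1279 CPM with Arg, and the groups overlapped (log2 fold change 0.03 ± 0.081, adjusted p 0.85). RCC1 had 249, 222 and 259 CPM and 226, 254 and 244 CPM (log2 fold change -0.01 ± 0.082, adjusted p 0.943). RANGAP1 had 194, 171 and 181 CPM and 181, 219 and 193 CPM (log2 fold change 0.11 ± 0.086, adjusted p 0.465). The values of these 3 genes overlapped between the groups. Their standard errors were 0.0814 to 0.0865 on the log2 scale. With 3 wells a group, differences well above that size went uncalled, as for NUP107 at 24 h (log2 fold change 0.248 ± 0.0821, adjusted p 0.0796). Differences of such a size in these 3 genes are therefore not excluded.

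The classical import receptor and its adaptor were higher without passing the adjusted test. KPNB1 had 542, 553 and 575 CPM in controls and 649.7, 686 and 608 CPM with Arg, and KPNA2 had 614, 586 and 553 CPM and 702, 651 and 631 CPM. In both genes all Arg libraries were above all controls. The log2 fold change was 0.22 ± 0.074 for KPNB1 (adjusted p 0.0891) and 0.18 ± 0.076 for KPNA2 (adjusted p 0.171). KPNB1 passed at 0.0499 with DESeq2 and at 0.0493 with all 12 libraries in a single model. The other 5 tested importin alpha genes had log2 fold changes of -0.17 (KPNA1) to 0.04 (KPNA4). The other 9 tested receptors of the importin beta type ranged from -0.10 (IPO9) to 0.14 (TNPO2), and the 6 exportins from -0.07 (XPOT, the tRNA exporter) to 0.10 (XPO7). XPO1 had 374, 401 and 401 CPM in controls and 412, 357 and 387 CPM with Arg, with overlap (log2 fold change -0.03 ± 0.077, adjusted p 0.877). XPO4 had 52.7, 54.5 and 58.4 CPM and 58.3, 52.0 and 50.6 CPM (log2 fold change -0.04 ± 0.093), and TNPO2 150.0, 153 and 156 CPM and 146, 191 and 169 CPM, also with overlap.

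Within the pore, estimates in the Y complex and the inner ring lay on both sides of 0, and differences between genes were not tested. None of the genes of this paragraph passed edgeR's adjusted test with all libraries of the comparison. NUP107, a scaffold subunit of the Y complex, had 119, 123 and 115 CPM in controls and 151, 143 and 130.4 CPM with Arg at 24 h. Its groups did not overlap (log2 fold change 0.25 ± 0.082, adjusted p 0.0796), while the other 6 Y complex genes lay between -0.11 (SEH1L) and 0.11 (NUP43). In the inner ring, NUP155 and NUP205 stood at opposite ends, with log2 fold changes of 0.23 ± 0.074 (adjusted p 0.0677) and -0.23 ± 0.078 (adjusted p 0.0878). Without Arg 24 h library A, NUP205 was called lower, and NUP62CL was not. In both NUP155 and NUP205 the 3 Arg libraries lay apart from the 3 controls, and the other 3 inner ring genes lay between -0.16 (NUP35) and 0.02 (NUP93). NUP98, a mobile repeat nucleoporin, had 235, 249 and 235 CPM and 267, 238 and 249.9 CPM with overlap (log2 fold change 0.07 ± 0.076). AAAS, whose product is held at the pore by NDC1, had 61.0, 62.8 and 59.8 CPM and 61.1, 65.0 and 66.6 CPM, also with overlap (log2 fold change 0.07 ± 0.085). NUP54 (-0.02) and NUP58 (-0.20) of the channel, NUP88 (-0.05) and RAE1 (0.18) of the cytoplasmic side, NUP50 (0.05) and NUP153 (0.06) of the basket and the membrane nucleoporin NDC1 (-0.04) did not pass either. TPR, the filament protein of the nuclear basket, had 60.4, 65.0 and 58.3 CPM and 63.2, 85.1 and 67.8 CPM. Its highest control was above its lowest Arg library (log2 fold change 0.23 ± 0.11, adjusted p 0.198). RANBP2, the largest cytoplasmic filament nucleoporin, had 116, 129 and 124 CPM and 137, 140.3 and 131 CPM. Its groups did not overlap (log2 fold change 0.14 ± 0.08, adjusted p 0.303). RGPD genes are near-identical copies of part of RANBP2. Of these, RGPD8 had 557 and RGPD5 82 counts in all, against 31357 for RANBP2. POM121 (log2 fold change 0.23) and POM121C (0.03), which are near-identical to each other, are uncertain for the same reason.

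**Figure D2:**
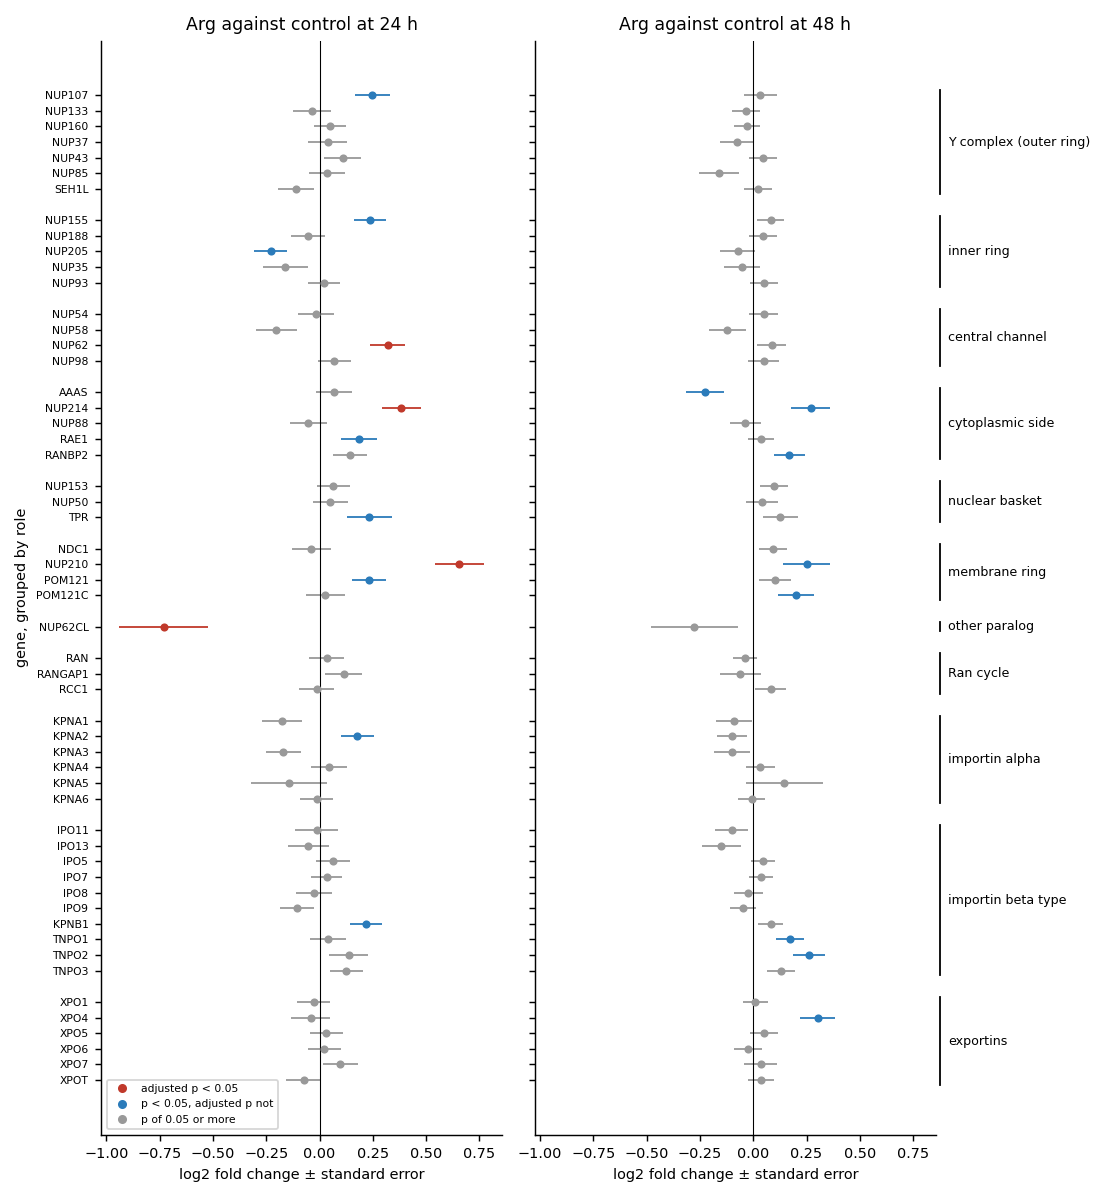
Log2 fold change of Arg against control with its standard error for the 54 tested genes, grouped by role, at 24 h (left) and 48 h (right), n = 3 libraries per group. At 24 h NUP210, NUP214 and NUP62 were higher and NUP62CL lower at an adjusted p under 0.05 (red), and at 48 h no gene passed.

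At 48 h none of the 54 genes passed the adjusted test of edgeR, higher or lower. Over all 14562 genes tested, 0.0% were called higher and 0.117% lower. At an unadjusted p under 0.05, 7 of the 54 were higher (13.0%, against 5.94% of all genes) and 1 was lower (1.85%, against 7.49%). With a length trend removed in each library the 7 became 3, beside 843 of all genes. Leaving out 1 library gave 2 to 11, beside 473 to 2187 of all genes. The 7 were XPO4, NUP214, TNPO2, NUP210, POM121C, TNPO1 and RANBP2, and the 1 was AAAS. DESeq2 also called none of the 54. The median log2 fold change was 0.036 over the 54 genes and 0.002 over all genes tested.

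XPO4, which exports the translation factor eIF5A, had 40.6, 40.5 and 38.2 CPM in controls and 45.0, 51.6 and 51.0 CPM with Arg at 48 h. All Arg libraries were above all controls, with a log2 fold change of 0.30 ± 0.084 and an adjusted p of 0.179. TNPO2, a transportin that imports RNA-binding proteins, had 138, 156 and 130.2 CPM and 171, 162 and 177 CPM (log2 fold change 0.26 ± 0.077, adjusted p 0.201). Its groups did not overlap either. NUP214 had 70.1, 84.8 and 69.4 CPM and 82.8, 93.3 and 94.8 CPM (log2 fold change 0.27 ± 0.09, adjusted p 0.237), with control B above 1 Arg library. NUP210 had a log2 fold change of 0.25 ± 0.11 (adjusted p 0.352). AAAS had 63.3, 54.1 and 67.5 CPM in controls and 50.7, 54.2 and 53.5 CPM with Arg, and control B was the control nearest to the Arg libraries (log2 fold change -0.23 ± 0.088, adjusted p 0.297).

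Without control 48 h library B the picture at 48 h was different. Mitochondrial genes took 0.906% and 0.707% of the counts of controls A and C, and 1.14% to 1.31% of the Arg counts. Without control B the arms thus did not overlap in this share, and its part in the calls was not tested. Of the 54 genes 5 were then called higher (9.26%, against 7.76% of all 14854 genes) and 4 lower (7.41%, against 8.17%), both close to the share of all genes. The 5 were NUP210 (log2 fold change 0.399, adjusted p 0.000990), NUP214 (0.371, 0.000904), TNPO2 (0.338, 0.000590), XPO4 (0.317, 0.0123) and POM121C. The 4 were AAAS (-0.310, 0.00510), KPNA2 (-0.171, 0.0273), KPNA3 and NUP85. NUP210 and NUP214, called at 24 h with all libraries, were thus called at 48 h only in the fit without control B. Control B was the highest 48 h control for both genes. Leaving out any other library of the 48 h comparison called none of the 54. The 24 h call of NUP214 was itself lost without control A, control C, Arg B or Arg C. Among the genes with full values here, those that follow still did not pass without this library. Their log2 fold changes were 0.125 for NUP62, -0.242 for NUP62CL, 0.085 for KPNB1, -0.064 for RAN, 0.011 for RCC1 and -0.173 for RANGAP1. For RANBP2 the value was 0.147, for TPR 0.189, for NUP107 0.116, for NUP98 0.099 and for XPO1 -0.019. Their adjusted p-values were 0.0654 (RANGAP1) to 0.925 (RCC1).

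By role, log2 fold changes at 48 h ranged from -0.16 to 0.04 in the Y complex, from -0.07 to 0.08 in the inner ring, from -0.10 to 0.14 among the importin alpha genes and from -0.15 to 0.26 among the receptors of the importin beta type. Exportins other than XPO4 ranged from -0.03 (XPO6) to 0.05 (XPO5). NUP62 had 125, 134 and 123 CPM in controls and 128, 135 and 144 CPM with Arg (log2 fold change 0.09 ± 0.068, adjusted p 0.616). NUP62CL had 4.56, 5.13 and 5.04 CPM and 3.49, 4.34 and 4.37 CPM. All its Arg libraries were below all controls, as at 24 h, but the difference did not pass (log2 fold change -0.28 ± 0.2, adjusted p 0.588). KPNA2 had 492, 419 and 494 CPM and 427, 448 and 439 CPM (log2 fold change -0.10 ± 0.07), and KPNB1 559, 567 and 573 CPM and 562, 609.5 and 631 CPM (0.08 ± 0.059). RAN had 990.4, 939.9 and 998 CPM and 967, 968 and 920.1 CPM (-0.04 ± 0.055), RCC1 197, 171 and 203 CPM and 196, 203 and 206 CPM (0.08 ± 0.071), and RANGAP1 169, 133 and 176 CPM and 143, 152 and 164 CPM (-0.06 ± 0.096). The 3 genes of the Ran cycle overlapped between the arms. RANBP2 had 146, 145 and 158 CPM and 154, 169 and 183 CPM (0.17 ± 0.074), and TPR 91.1, 104 and 93.6 CPM and 94.8, 109 and 112 CPM (0.13 ± 0.082), with overlap in both. NUP107 (0.03 ± 0.077), NUP98 (0.05 ± 0.072) and XPO1 (0.01 ± 0.058) had log2 fold changes within 1 standard error of 0. Their CPM values were 114, 131 and 109 in controls and 118, 125 and 119.6 with Arg for NUP107, 212, 237 and 216 and 218, 221 and 251 for NUP98, and 365, 350.1 and 380.2 and 363, 370.4 and 372 for XPO1.

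**Figure D3:**
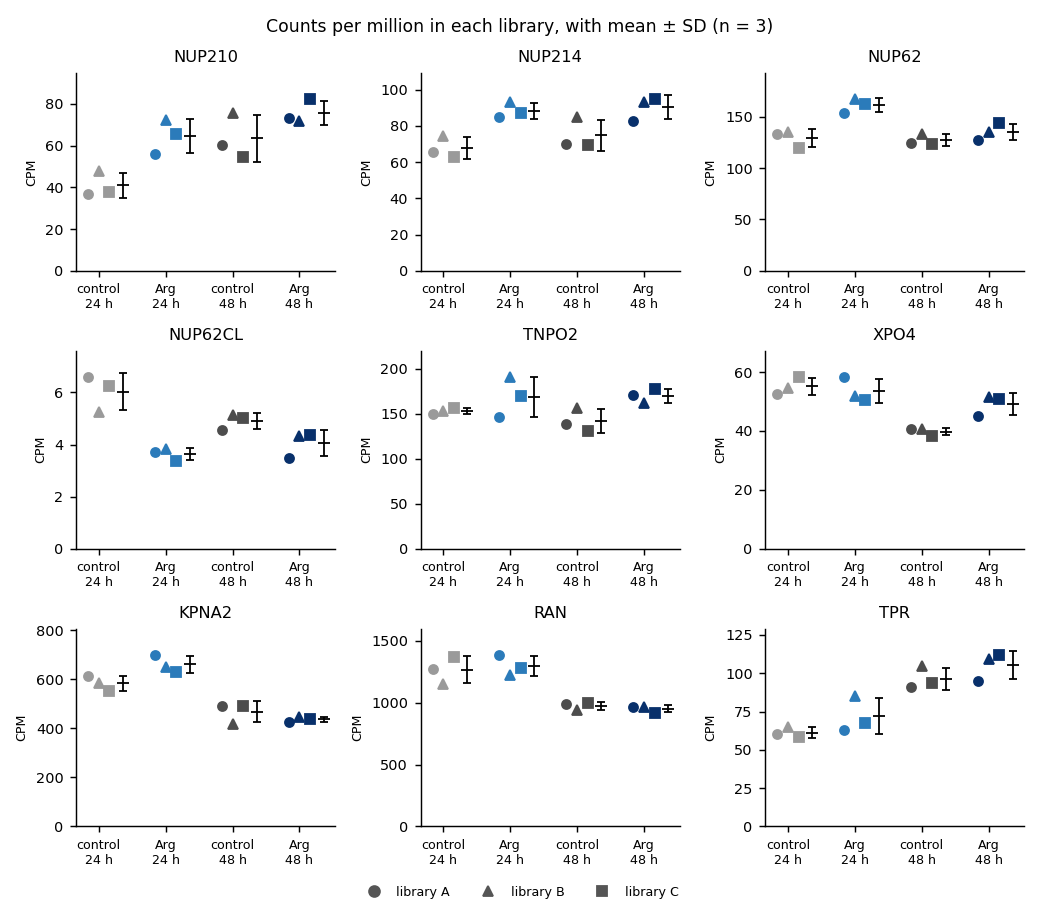
CPM of 9 genes in each of the 12 libraries (circles A, triangles B, squares C) with mean ± SD of the 3 libraries of a group. At 24 h all Arg libraries were above all controls for NUP210, NUP214, NUP62 and KPNA2; at 48 h all were above all controls for TNPO2 and XPO4, and RAN and KPNA2 were lower than at 24 h in both arms.

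At 48 h the Arg difference of the 54 genes moved with their length. Pearson's r between the log2 of exonic length and the log2 fold change over the 54 genes was 0.537 (Spearman's rho 0.449) at 48 h. At 24 h it was 0.313 (0.0976). Over all genes tested it was 0.103 (0.164) at 48 h and 0.0123 (0.0491) at 24 h. These values describe genes, which share libraries and are not independent replicates. Once a length trend was removed in each library, the median of the 54 genes at 48 h was -0.003 in place of 0.036, and 26 of 54 values were above 0 in place of 33.

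The test of the difference between the Arg effects at 48 h and 24 h called none of the 54 genes, with edgeR or with DESeq2. At an unadjusted p under 0.05, 5 of the 54 differed (9.26%, against 6.87% of all 15148 genes tested). Without control 48 h library B none of the 55 members then tested was called. Unadjusted, 5 differed, beside 705 higher and 724 lower of 15508 genes. The Arg effect was estimated as lower at 48 h for NUP210 (by -0.40 ± 0.17 on the log2 scale, adjusted p 0.694), NUP62 (-0.23 ± 0.1, 0.708), KPNA2 (-0.28 ± 0.1, 0.609) and AAAS (-0.29 ± 0.12, 0.662). It was estimated as higher at 48 h for XPO4 (0.35 ± 0.12, 0.606).

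Between 24 h and 48 h the transport genes differed more than between arms, and mostly downward. In controls 15 of the 54 fell (27.8%, against 10% of 14449 genes tested) and 3 rose (5.56%, against 9.90%). With Arg 20 of the 54 fell (37.0%, against 14.0% of 14398 genes) and 2 rose (3.70%, against 14.3%). The median log2 fold change was -0.138 in controls and -0.141 with Arg, where the medians of all genes were 0.012 and 0.001. The summed fibroblast markers were higher at 48 h, as given above. Of 4 that could be tested, DCN and COL1A1 rose in both arms. LUM did not pass, nor did PDGFRB (log2 fold change -0.111 in controls and -0.157 with Arg). The endothelial marker KDR also rose in both arms, and of the keratinocyte markers 3 rose and 2 fell in each arm. The part of these markers in the differences was not tested. Time in culture and the day of collection cannot be told apart.

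Both arms, which share no library, gave 12 of the falls: RAN and RCC1 of the Ran cycle, the import adaptors KPNA2, KPNA3 and KPNA4, the importins IPO5 and IPO7, the exportins XPO5 and XPO6, and the nucleoporins NDC1, NUP93 and SEH1L. Of the 13866 genes tested in both arms, 7.38% fell in both. RANBP2 and TPR rose in both, as did 7.21% of all genes. Over the 54 genes the log2 fold changes of the arms had a Pearson's r of 0.769 and a Spearman's rho of 0.704, and 45 of 54 had the same sign, 37 of them lower at 48 h.

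RAN fell from 1267 ± 108 to 976 ± 31.6 CPM (mean ± SD, n = 3) in controls and from 1298 ± 84.8 to 952 ± 27.4 CPM with Arg. All 48 h libraries were below all 24 h libraries in both arms. The log2 fold changes were -0.37 ± 0.074 (adjusted p 0.00665) and -0.45 ± 0.063 (adjusted p 3.03e-05). KPNA2 fell by 0.32 ± 0.08 on the log2 scale in controls (adjusted p 0.0184) and by 0.59 ± 0.063 with Arg (adjusted p 1.20e-06). RCC1 fell by 0.35 ± 0.087 (adjusted p 0.0158) and 0.26 ± 0.067 (adjusted p 0.00679). RCC1 shares its strand with SNHG3, which overlaps it and had 4759 counts against 47522 for RCC1. RANGAP1 fell with Arg only, by 0.36 ± 0.078 (adjusted p 0.00164), and its value in controls was -0.19 ± 0.1 (adjusted p 0.214). The difference between the arms is the interaction test above, which RANGAP1 did not pass (adjusted p 0.866).

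SEH1L, a Y complex subunit that also belongs to the GATOR2 complex of amino acid sensing, fell most in controls. It went from 205 ± 7.73 to 135 ± 3.69 CPM, a log2 fold change of -0.60 ± 0.071 (adjusted p 0.00104). With Arg it went from 190.5 ± 19.02 to 137 ± 6.06 CPM, a log2 fold change of -0.47 ± 0.077 (adjusted p 0.000132). The exportin of pre-miRNAs XPO5 fell by 0.46 in controls and 0.44 with Arg, and XPO6, the exportin of actin, by 0.41 and 0.46. IPO5 fell by 0.34 and 0.36, KPNA4 by 0.32 and 0.33, NUP93 by 0.31 and 0.28, and NDC1 by 0.41 and 0.28. The falls of IPO7 and KPNA3 were 0.21 and 0.33 in controls.

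TPR rose from 61.2 ± 3.41 to 96.4 ± 7.07 CPM in controls and from 72.0 ± 11.6 to 106 ± 9.33 CPM with Arg. The log2 fold changes were 0.66 ± 0.086 (adjusted p 0.00159) and 0.55 ± 0.098 (adjusted p 0.000301), and all 48 h libraries were above all 24 h libraries in both arms. RANBP2 rose by 0.28 ± 0.077 (adjusted p 0.024) and 0.31 ± 0.074 (adjusted p 0.00367). With the length trend removed, RANBP2 passed in neither arm (0.171, adjusted p 0.132, in controls and 0.158, adjusted p 0.110, with Arg). NUP210 rose in controls by 0.64 ± 0.13 (adjusted p 0.00842). With Arg, where its 24 h level was already higher, its value was 0.23 ± 0.092 (adjusted p 0.0688). In controls NUP58, TNPO1 and XPO4 also fell, the last by 0.47 ± 0.086 (adjusted p 0.00478). With Arg the further falls were AAAS (-0.28), IPO11 (-0.26), NUP107 (-0.23), NUP155 (-0.29), NUP37 (-0.30), NUP62 (-0.25) and RAE1 (-0.24). IPO11 and KIF2A overlap on the same strand, so IPO11 is uncertain. The other 28 genes were called in neither arm, among them KPNB1, NUP98 and XPO1, with log2 fold changes of 0.03 and -0.11, -0.11 and -0.13, and -0.10 and -0.06. The count of falls in controls was 7 without control 24 h library A, beside 406 of 14825 genes tested. It was 8 without control 24 h library C, beside 501 of 14890 genes. Both fits lost the falls of IPO7, KPNA3, KPNA4, NUP58, NUP93, RCC1 and TNPO1 and the rises of NUP210 and RANBP2, and the fit without library A also lost KPNA2. Without control 48 h library B the falls were 14, without NUP58, and the rises 3, beside 1268 falls and 1152 rises among 14749 genes. In the Arg arm the falls were 13 without Arg 48 h library A, beside 1522 of 14752 genes. That fit lost AAAS, IPO7, IPO11, KPNA3, NDC1, NUP62 and NUP107. IPO5, RAN, SEH1L, XPO5 and XPO6 kept their falls, and TPR its rise, in both arms under each of the 14 alternatives.

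**Figure D4:**
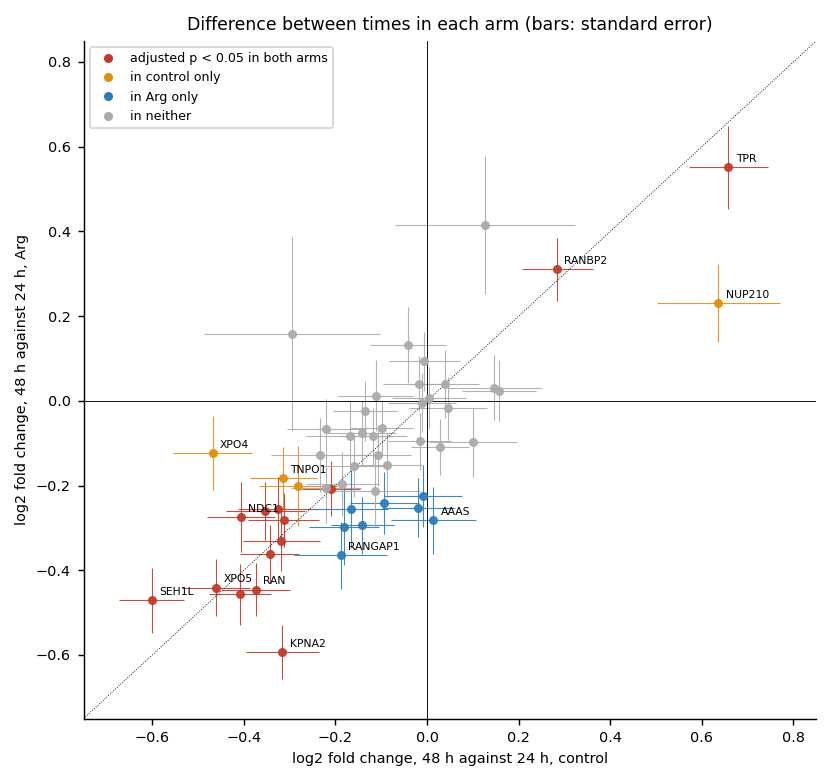
Log2 fold change of 48 h against 24 h in controls (horizontal) and with Arg (vertical) for the 54 tested genes, with standard errors; the dotted line marks equal values. Most points lie in the lower left, where 12 genes fell in both arms (red), and TPR and RANBP2 lie in the upper right.

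The promoters of RAN, KPNA2 and RCC1 are shown as those of 3 genes that fell in both arms, in the same windows and with the same motifs in capitals. They lie at chr12:130871926-130872075 on the plus strand, chr17:68035595-68035744 on the plus strand and chr1:28505903-28506052 on the plus strand.
RAN: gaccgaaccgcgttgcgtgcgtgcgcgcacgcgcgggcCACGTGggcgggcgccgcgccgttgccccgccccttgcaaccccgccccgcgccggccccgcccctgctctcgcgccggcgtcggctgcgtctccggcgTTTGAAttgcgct
KPNA2: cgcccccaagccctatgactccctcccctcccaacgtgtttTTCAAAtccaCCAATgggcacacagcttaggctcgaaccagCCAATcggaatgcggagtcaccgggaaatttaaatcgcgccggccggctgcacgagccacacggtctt
RCC1: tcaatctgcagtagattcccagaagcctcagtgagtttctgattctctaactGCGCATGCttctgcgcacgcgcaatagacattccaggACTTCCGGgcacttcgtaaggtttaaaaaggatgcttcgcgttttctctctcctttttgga
The RAN window held an E-box 102 bases before the start and a TTTGAA that spans the start. The KPNA2 window held CCAAT boxes 89 and 58 bases before the start and a TTTGAA on the opposite strand at 99 bases. RCC1, here at the first of its 2 starts, held an ETS match at 51 bases and an NRF1 core at 88 bases. Of the 68 promoters of the 53 matched genes, 38.2% held CCAAT, against 34.6% of all 35116 promoters and 34.5% of those of tested genes. TTTGAA was in 22.1%, against 15.2% and 10.5%, and CACGTG in 14.7%, against 7.26% and 9.32%. CCGGAAGT was in 14.7%, against 4.14% and 7.12%, and GCATGCGC in 8.82%, against 3.05% and 4.65%. Of the 12 genes that fell in both arms, 11 had a promoter in the table, with 14 promoters between them. TTTGAA was in 6 of the 14 (IPO7, KPNA2, NDC1, NUP93 and RAN) and CCAAT in 5 (IPO5, KPNA2, NUP93 and XPO6). CACGTG was in 4 (IPO7, KPNA3, RAN and RCC1), CCGGAAGT in 2 (RCC1 and XPO6) and GCATGCGC in 2 (RCC1). A match describes the letters and is no measured binding site.

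The genes that work next to these were read from lists of named pathways. Their counts stand beside 2.79% of all genes called higher and 3.84% called lower at 24 h, and 0.0% and 0.117% at 48 h. Between times, 9.90% to 14.3% of all genes were called in each direction. At an unadjusted p under 0.05 the shares higher and lower were 10.8% and 11.9% at 24 h, and 5.94% and 7.49% at 48 h. List values at 48 h include control 48 h library B, and the lists were not counted without it. Without that library 7.76% of all genes were called higher and 8.17% lower at 48 h. Spindle factors that the Ran cycle releases from importins were the list with the most calls at 24 h. Of 11 tested, 6 were upregulated by Arg and all 11 were above 0, with a median log2 fold change of 0.314 (0.003 over all genes). The minus-end motor KIFC1 was 0.459 ± 0.0885 higher (adjusted p 0.00461), TPX2, which activates Aurora A at the spindle, 0.346 ± 0.0733 higher (adjusted p 0.00840), and RACGAP1 0.338 ± 0.0812 higher (adjusted p 0.0183). At 48 h none of the 11 passed (1 higher and 2 lower at an unadjusted p under 0.05), and their median was 0.017. Of 12 mitotic genes, 4 were higher at 24 h (TOP2A, BUB1B, MKI67 and BUB1, median of the list 0.272) and none at 48 h, also unadjusted (median 0.003). With time in the Arg arm, 5 of the 11 spindle factors fell and 1 rose, and 9 of the 12 mitotic genes fell. In controls 3 of the 11 rose and none fell, and 2 of the 12 rose and 4 fell. Of 12 S phase genes, none passed at 24 h, where the lowest adjusted p was 0.0547 (RRM1), and none at 48 h. At an unadjusted p under 0.05 they gave 3 higher at 24 h and 1 lower at 48 h.

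Of 18 genes of the nuclear lamina and envelope, 4 were higher and 1 lower at 24 h. The B-type lamin LMNB1 was higher by 0.483 ± 0.0761 (adjusted p 0.000968), LMNA by 0.367 ± 0.0847 (adjusted p 0.0142) and the lamin B receptor LBR by 0.313 ± 0.0844 (adjusted p 0.0329). SYNE2, which links the nucleus to the cytoskeleton, was lower (-0.658 ± 0.10, adjusted p 0.000728). None of the 18 passed at 48 h (2 higher at an unadjusted p under 0.05), and over time SYNE2 rose with Arg by 1.02 ± 0.115. Of 12 pore-associated genes outside the rule, CENPF alone passed at 24 h (0.435 ± 0.10, adjusted p 0.0142). CENPF is a kinetochore protein of dividing cells that also binds the pore.

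Of 27 mRNA export genes, 1 passed at 24 h, the transcription-export subunit THOC6, which was lower (-0.823 ± 0.0941, adjusted p 4.37e-05). Its value at 48 h was -0.525 ± 0.152 (adjusted p 0.198). With time 9 of the 27 fell and 1 rose with Arg, and 3 fell and 1 rose in controls. Of 15 further partners of Ran and the carriers, none passed for Arg at either time (4 higher and 2 lower unadjusted at 24 h, 1 each at 48 h). The closest was the envelope protein NEMP1 at 24 h (0.291 ± 0.0886, adjusted p 0.0574). RANBP1, which helps RANGAP1 act on RAN, fell with time by 0.321 ± 0.0693 in controls (adjusted p 0.00930) and 0.361 ± 0.0636 with Arg (adjusted p 0.000282). NUTF2, which carries RAN back into the nucleus, fell in both arms (log2 fold changes -0.405 ± 0.0757, adjusted p 0.00511, and -0.298 ± 0.0643, adjusted p 0.00172). Of 16 SUMO pathway genes, none passed for Arg at either time (1 higher and 4 lower unadjusted at 24 h, 1 and 2 at 48 h), and with time 5 fell in each arm, while 1 rose in controls and 3 rose with Arg.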

How the data were processed

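Poly(A) RNA of 12 TIGK cultures was sequenced in 4 groups of 3 libraries. The deposited values were gene counts that the authors made with fastp, STAR and featureCounts on GRCh38/hg38, per the submitters' processing notes. Tool versions, the annotation release and the strand setting are not given in the sources used here. All 12 columns were used, and 0 columns were left out. Depth was 16542243 to 19040964 counts a library, which limits precision for the lowest genes.

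Genes were filtered with filterByExpr, scaled by TMM and tested with edgeR 4.0.16 (glmQLFit and glmQLFTest, R 4.3.3) on the 6 libraries of each comparison, and on all 12 for the interaction. P-values were adjusted (Benjamini-Hochberg) over all genes tested. Standard errors are the log2 fold change over the root of F. CPM use TMM-scaled totals, per kb of exonic length between genes. The scripts were tested on simulated data.

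The members and the lists were chosen with earlier results of these data known. Full values are given for members with an adjusted p under 0.05 for Arg, for the 5 largest changes per time at an unadjusted p under 0.05, for members with an unadjusted interaction p under 0.05, and for RAN, RCC1, RANGAP1, KPNB1, KPNA2, XPO1, NUP62, NUP98, NUP107, TPR and RANBP2. Alternatives were DESeq2 1.42.0, its size factors, no filter, at least 10 counts in every library, a single model, the replicate letter as a block, removal of a length trend, and leaving out each library.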

Additional observations from a re-analysis of the deposited data

How the results depend on the processing

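At 24 h the number of transport genes called higher with Arg was 3 as reported, beside 398 of all genes. It was 5 with DESeq2 (494 of all genes) and 5 with all 12 libraries in a single model (468 of all genes). Both added KPNB1 and NUP155. When 1 library was left out it was 1 to 3 (NUP210 in each case), beside 126 to 647 of all genes. The number called lower was 0 with the replicate block, 0 with the length correction and 0 with both, beside 545, 612 and 557 of all genes. It was 0 to 1 when 1 library was left out, beside 233 to 882 of all genes. Without Arg A the 1 was NUP205 in place of NUP62CL. At 48 h 1 gene (TNPO2, adjusted p 0.0349) was called higher without a filter on low counts, beside 199 of all genes. Leaving out 1 library gave 0 to 5 higher and 0 to 4 lower, beside 0 to 1152 and 5 to 1213 of all genes. The highest counts were those without control B. Between times in controls the falls were 23 with the length correction and block together, beside 2156 of all genes. When 1 library was left out they were 7 to 15, beside 406 to 1719 of all genes. The rises were then 1 to 3, beside 422 to 1585 of all genes. In the Arg arm the rises were 1 with the length correction, alone (1811 of all genes) or with the block (1656 of all genes). The falls in that arm were 13 to 22 when 1 library was left out, beside 1378 to 1915 of all genes. The median there was -0.209 with the length correction and -0.206 with the block added.

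The median of the 54 genes at 24 h turned from 0.033 to -0.016 without Arg A. Of the log2 fold changes of the named genes, those that turned sign passed no test. When 1 library was left out, the log2 fold changes at 24 h ran from -0.032 to 0.089 for RAN, from -0.078 to 0.029 for RCC1 and from -0.082 to 0.023 for XPO1. At 48 h they ran from -0.021 to 0.116 for NUP107, from -0.015 to 0.099 for NUP98, from -0.019 to 0.038 for XPO1 and from -0.173 to 0.015 for RANGAP1. With the length correction, alone and with the block added, the values at 48 h were -0.004 and -0.001 for NUP107, -0.003 and -0.004 for NUP98, and -0.055 and -0.053 for XPO1. The cause was not tested, beyond the construction of each alternative. Deviations of libraries with the same letter had mean correlations of -0.0154 between arms at 24 h, 0.0148 between arms at 48 h and -0.0376 between times with Arg. Between times in controls they were 0.0626 to 0.204 (mean 0.120), and 4 of 6 libraries correlated best with their own letter. Since not every pair passed 0.1, the letters were not taken as pairs. With the replicate block, 3 genes were still higher at 24 h, and 17 (controls) and 19 (Arg) fell between times, while over all genes the calls in controls went from 1431 higher and 1451 lower to 1969 and 2075. Depth limits NUP62CL and the genes that could not be tested, and IPO4 also shares its span with another model.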
